A study of Mus musculus with 18 samples.

Results

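The genes described here encode the catalytic and core subunits of ATP-dependent chromatin remodellers (Smarc and Chd), the zinc-dependent histone deacetylases (Hdac), the histone lysine demethylases (Kdm) and the lysine acetyltransferases (Kat). They were chosen by name: every gene whose current symbol starts with Smarc, Hdac or Kdm, or is Chd or Kat followed by a number. The RefSeq gene table for mouse build GRCm38.p6 lists 67 such symbols, and 56 of them had a named probe on the arrays, out of 18925 named genes on the larger array product. By family these were 13 Smarc, 9 Chd, 10 Hdac, 16 Kdm and 8 Kat genes. A probe on both array products was found for 46 genes, and 10 genes (Smarca4, Chd5, Chd6, Chd8, Chd9, Hdac10, Kat6a, Kat7, Kdm1b and Kdm4a) had probes on the larger product alone. The other 11 symbols were not analysed here. They are Chd7, Hdac4, Kdm2a and Kdm3a, and 7 pseudogenes.

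Remodellers use ATP to slide, evict or exchange nucleosomes. The BAF complex is built around either of the ATPases Smarca4 (BRG1) and Smarca2 (BRM), and in embryonic stem cells it is known to contain Smarca4 and Smarcc1 (BAF155) and little Smarca2 or Smarcc2 (BAF170). The NuRD complex couples the remodellers Chd3 or Chd4 to the deacetylases Hdac1 and Hdac2, and deacetylases and demethylases remove the histone marks that acetyltransferases and methyltransferases place. In stem cells the demethylase Kdm1a (LSD1) acts with Hdac1 and Hdac2 in the silencing of enhancers during differentiation.

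The study hybridised RNA of 10 samples to 18 arrays of oligonucleotide probes, each read in 1 colour. The embryonic stem cells (ESC) were of the single line MES3, derived from a C57BLxCBA blastocyst and grown with the cytokine LIF on mitomycin-inactivated mouse embryonic fibroblasts, which can contribute RNA to the ESC samples. Embryoid bodies (EB) are aggregates that form when colonies are moved to low-adhesion plates in the same medium without LIF and without mercaptoethanol. They differentiate spontaneously and were collected after 3 and 7 days. Adult tissue RNA came from tissues that the labels do not name. Replicate 1 of ESC and replicates 1 and 2 of 3-day EB, of 7-day EB and of adult RNA were on the UniSet Mouse 20K I product. On the Mouse Whole Genome product were ESC replicate 2 and the third replicates of 3-day and 7-day EB. Each cultured sample was run on 2 arrays. Whether replicates came from separate cultures is not stated, and the p-values cover the spread among these samples only, which may be technical.

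Levels below are log2 of the quantile-normalized intensity, and they are comparable between samples of 1 product for 1 probe, not between products or genes. In bulk RNA, fewer cells of a type and less RNA per cell cannot be told apart. On the UniSet product 27.8 to 36.4% of gene probes were above background on the 10 cultured arrays, against 52.8 to 57.9% on the 2 adult arrays, and on the Whole Genome product the range was 60.9 to 72.2%. Pou5f1, the stem cell factor Oct4, was between 8.59 and 9.82 in the cultured UniSet samples and at 4.72 and 4.39 in the adult samples. Of 7 tested pluripotency markers 6 were higher in culture than in adult RNA (limma, adjusted p under 0.05). Tdgf1 was at 5.96 to 6.57 in culture and at 6.25 and 5.56 in the adult samples. Against ESC, 0 of the 7 were lower at 3 or 7 days and 1 was higher at 7 days, with median log2 differences of -0.06 and 0.22. Of 4 tested endoderm markers, 0 were higher than in ESC at 3 days and 1 at 7 days, and 0 were lower. Their median log2 differences were 1.25 and 2.67. The summed level of 14 fibroblast markers, which stand for the feeder cells, was 11.81 in ESC replicate 1 and 7.28 to 9.67 in the UniSet EB samples. Of 12 tested fibroblast markers, 7 were lower in 3-day EB than in ESC and 8 in 7-day EB (limma, adjusted p under 0.05), with median log2 differences of -3.48 and -3.80. Of the tested markers of adult organs, 2 of 2 for testis, 2 of 3 for lung, 1 of 2 for brain, 1 of 1 for liver and 0 of 1 for skeletal muscle were lower in the UniSet cultured samples than in adult RNA. The testis genes Prm2 and Tnp1 were at 11.53 to 12.91 in the adult samples, the lung genes Sftpc and Scgb1a1 at 10.81 to 12.72, the neuronal gene Snap25 at 8.63 and 8.68 and the liver gene Alb at 4.67 and 5.32. The third lung gene, Sftpb, was at 4.57 and 3.79, against 4.37 to 4.72 in the UniSet cultured samples. The liver gene Cyp3a11 was at 1.77 and 1.83 in the adult samples, against 1.77 to 2.37. Of the other brain genes there, Gfap was at 4.05 and 3.53, against 3.252 to 4.175, and Mbp at 3.08 and 3.06, against 1.773 to 2.325.

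The first question was whether these genes differed between ESC and EB. A probe entered the test when it was above background on every array of at least 1 group, which left 31 of the 46 genes on both products. None of the 31 passed the threshold of an adjusted p under 0.05 (limma with Benjamini-Hochberg adjustment over 6289 genes) at 3 days, at 7 days or between 3 and 7 days. Of all tested genes 2.8% passed at 3 days (0.652% higher and 2.15% lower), 5.09% at 7 days (1.76% higher and 3.32% lower) and 0% between the EB stages, so a count of 0 among 31 genes is near the background. Without adjustment, p was under 0.05 for 4 genes at 3 days, 5 at 7 days and 6 between the stages, 12.9, 16.1 and 19.4% of the 31, against 19, 22.5 and 14.8% of all genes. The median log2 difference from ESC of the 31 genes was -0.23 at 3 days and 0.12 at 7 days, beside 0.06 and 0.04 over all tested genes.

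The intervals say how large a difference the data could still hold. The 95% interval lay within 1 log2 unit of 0 for 21 of the 31 genes at 3 days and for 21 at 7 days, beside 63 and 60.7% of all tested genes, and for 23 between the stages, beside 74.7%. The 5 tested deacetylases were all among these genes at both stages. Of the 31 genes, 6 had each 3-day sample above each ESC sample of the same product and 10 had them below, beside 29.9 and 22.6% of all genes, and at 7 days these counts were 8 and 3, beside 24.3 and 23.9%. Smarcd3 and Kdm6a, among the 10, entered the test through ESC alone. Kdm3b and Kdm6b, among the 8, entered it through 7-day EB alone. Between 3 and 7 days, 13 genes had each 7-day sample above each 3-day sample of the same product, against 13.9% of all genes, and 1 gene, Kdm8, had the opposite order, against 16.9%. The 13 were Hdac1, Hdac2, Hdac3, Hdac5, Kdm1a, Kdm2b, Kdm3b, Kdm4c, Kdm6b, Kat2a, Chd2, Smarcal1 and Smarcb1, named after their values were seen, and the adjusted p was 0.119 or above. For Kdm3b and Kdm6b, which entered through 7-day EB alone, the filter could favour a higher 7-day level. The share over all genes that entered this way was not computed.

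**Figure D1:**
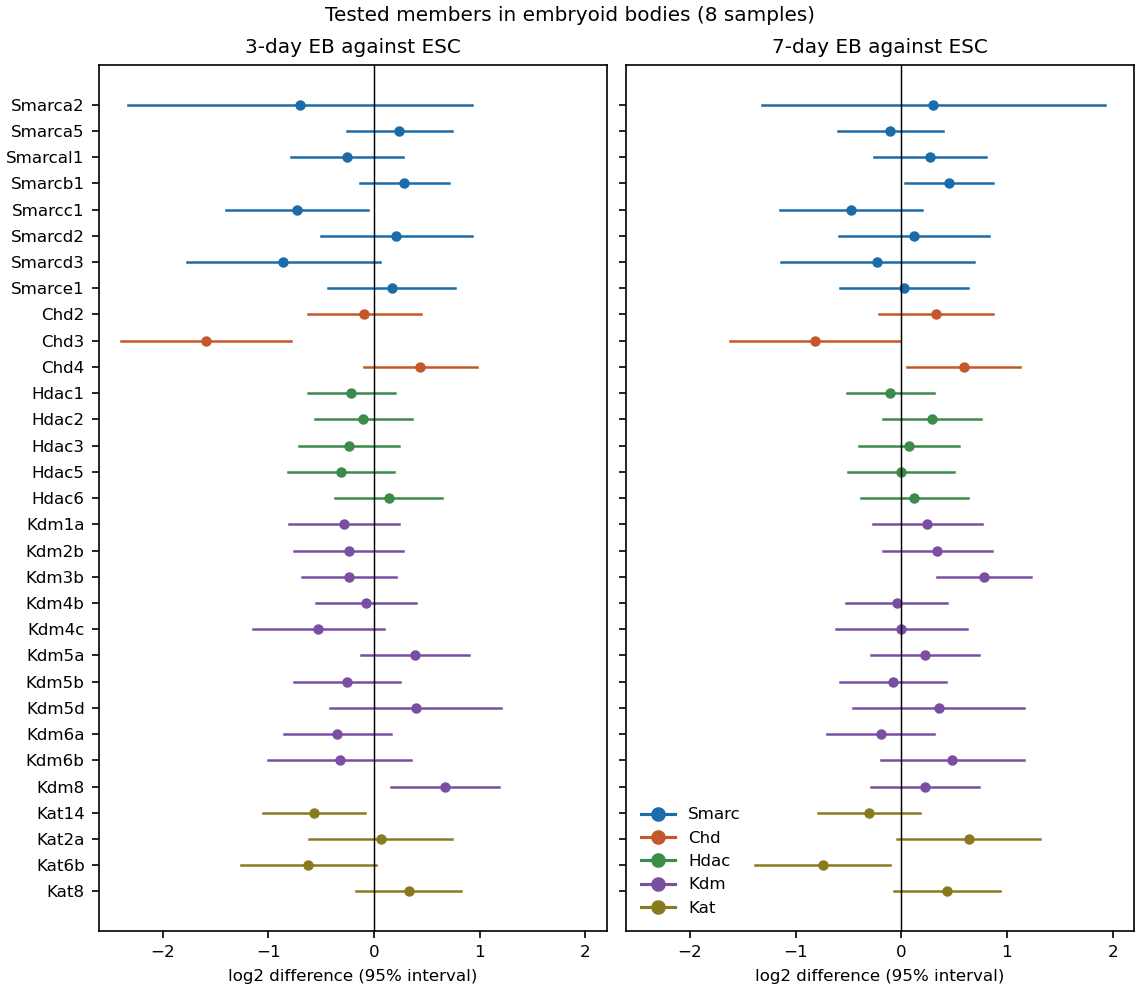
Log2 differences from ESC of the 31 tested genes in 3-day EB (left) and 7-day EB (right), with points for the limma estimate over 8 samples, lines for the 95% interval and colours for the family. Most intervals include 0, and the estimates at 3 days run from -1.59 for Chd3 to 0.67 for Kdm8. The intervals of the 5 deacetylases lie within 1 log2 unit of 0, as do those of 21 of the 31 genes at each stage. Kdm3b and Smarcd2 were not above background on the UniSet ESC arrays. Kdm3b, Kdm6b and Smarcd2 entered the test through 7-day EB alone, and Smarcd3 and Kdm6a through ESC alone.

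Among the BAF subunits, Smarcb1 (SNF5), a core subunit in all forms of the complex, gave close values within each stage. On the UniSet product it was at 6.32 in ESC, 6.43 and 6.44 in 3-day EB, and 6.64 and 6.64 in 7-day EB. Whole Genome levels were 10.68, 11.19 and 11.27 in the same order. Each EB sample was above its ESC sample, and the estimate at 7 days was 0.45 ± 0.18 (SE, adjusted p = 0.194), which did not pass.

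Smarcc1, the scaffold subunit of the stem cell form, gave different sizes on the 2 products. UniSet levels were 5.83 in ESC, 5.61 and 5.48 in 3-day EB, and 5.86 and 6.0 in 7-day EB. Whole Genome levels were 10.34, 9.12 and 9.12. The 3-day samples lay below ESC on both products, whereas at 7 days this was so on the Whole Genome product alone, and the estimates were -0.73 ± 0.29 (SE, adjusted p = 0.232) at 3 days and -0.48 ± 0.29 (adjusted p = 0.372) at 7 days. Its paralogue Smarcc2, which replaces it in differentiating cells, was not above background on any of the 10 cultured UniSet arrays and was not tested. On the Whole Genome product Smarcc2 was at 6.49 in ESC and at 7.30 in both EB samples.

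Smarca2, the ATPase that alternates with Smarca4, was the least even gene between replicates. It was at 7.74 in ESC on the UniSet product. The 3-day samples were at 6.69 and 5.73 and the 7-day samples at 7.84 and 5.92, so that 7-day replicates 1 and 2 lay 1 on each side of ESC. On the Whole Genome product the levels were 8.20, 8.36 and 10.04. The estimates were -0.70 ± 0.70 (SE) at 3 days and 0.30 ± 0.70 at 7 days (adjusted p = 0.628 and 0.827), the widest standard errors among the 31 genes. The summed level of the fibroblast markers in the same UniSet samples was 11.81 in ESC, 7.51 and 8.88 at 3 days and 9.67 and 7.28 at 7 days. The 2 measures had the same order in the 7-day pair and the opposite order in the 3-day pair, and on the Whole Genome product Smarca2 was highest at 7 days and the fibroblast sum in ESC. The part of the feeder cells in the Smarca2 values was not tested. Smarca4 was measured on the Whole Genome product alone, at 9.51 in ESC, 9.94 in 3-day EB and 10.13 in 7-day EB, with a second, dimmer probe at 5.61, 5.51 and 5.31.

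The accessory subunits did not pass either. Smarcd3 (BAF60C), best known from heart and muscle, was at 5.29 in ESC, 4.1 and 5.06 in 3-day EB and 5.24 and 4.43 in 7-day EB on the UniSet product, and at 8.10, 6.92 and 8.29 on the Whole Genome product. Its 3-day estimate of -0.86 ± 0.40 (SE, adjusted p = 0.287) was the largest of the family. Smarcd3 entered the test through ESC alone, with 4 of 6 arrays above background at each EB stage, so the filter could favour a lower EB level. Smarcd2 and Smarce1 (BAF57) had 3-day and 7-day estimates between 0.03 and 0.21, with Smarcd2 not above background on the UniSet ESC arrays. Smarcd2 entered the test through 7-day EB alone. Its 7-day estimate averages opposite signs, with differences from ESC of 0.479 and 0.495 on the UniSet product and -0.477 on the Whole Genome product. The other tested remodellers were Smarca5 (SNF2H) and Smarcal1. Smarca5, the ISWI ATPase needed in early embryos, had estimates of 0.24 and -0.10. These are from 1 probe, and on the Whole Genome product the Smarca5 probes disagree. There the probe used differed from ESC by 0.07 at 3 days and by -0.371 at 7 days. Another probe, above background on every array of both products, differed by 0.456 and 1.135. The brightest probe there, not on the UniSet product, differed by -0.385 and 0.4. Smarcal1, an annealing helicase at stalled replication forks, had estimates of -0.25 and 0.28. Smarca1 (SNF2L) and Smarcad1 were not above background on the cultured UniSet arrays. On the Whole Genome product Smarca1 read 7.20, 6.42 and 6.77 in ESC, 3-day and 7-day EB, and Smarcad1 read 8.48, 8.75 and 8.0. Smarcd1 was above background on 2 of the 10 cultured UniSet arrays.

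Chd3 and Chd4, the alternative ATPases of NuRD, had estimates of opposite sign. Chd3 was at 6.42 in ESC, 4.27 and 5.16 in 3-day EB and 5.67 and 4.93 in 7-day EB on the UniSet product, and at 10.37, 8.84 and 10.00 on the Whole Genome product. Each EB sample lay below its ESC sample. The estimate at 3 days was -1.59 ± 0.35 (SE, 95% interval -2.39 to -0.79, adjusted p = 0.0552), the largest difference from ESC among the 31 genes, and did not pass. It passed with arrays centred on their medians (-1.54, adjusted p = 0.0337), with the authors' normalization (-1.55, adjusted p = 0.0323), without 3-day EB replicate 2 (-1.84, adjusted p = 0.0235) and without 7-day EB replicate 2 (-1.62, adjusted p = 0.0275). It did not pass in the other alternatives, where the adjusted p was 0.0552 to 0.447 and reached 0.23 with the replicate block, 0.298 without ESC replicate 1, 0.344 without 3-day EB replicate 3 and 0.447 with the UniSet arrays alone. At 7 days the estimate was -0.81 ± 0.35 (adjusted p = 0.215). The summed fibroblast markers were also highest in ESC on both products, at 14.78, 11.35 and 12.84 in ESC, 3-day and 7-day EB on the Whole Genome product, and their part in the Chd3 values was not tested.

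Chd4 was at 6.75 in ESC, 6.97 and 6.88 in 3-day EB and 7.17 and 6.84 in 7-day EB on the UniSet product, and at 10.09, 10.82 and 11.11 on the Whole Genome product. Each EB sample was above its ESC sample, by 0.09 to 0.42 on the UniSet product and by 0.73 and 1.03 on the other. The estimates of 0.44 ± 0.23 (SE) and 0.59 ± 0.23 did not pass (adjusted p = 0.344 and 0.185). Whether the Chd3 and Chd4 differences themselves differ was not tested. Chd2 had estimates of -0.09 and 0.33. Chd1, a remodeller tied to the open chromatin of stem cells, was above background on 3 of 4 UniSet arrays at 7 days and on none at the other stages. It read 9.39, 8.80 and 9.33 in ESC, 3-day and 7-day EB on the Whole Genome product.

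**Figure D2:**
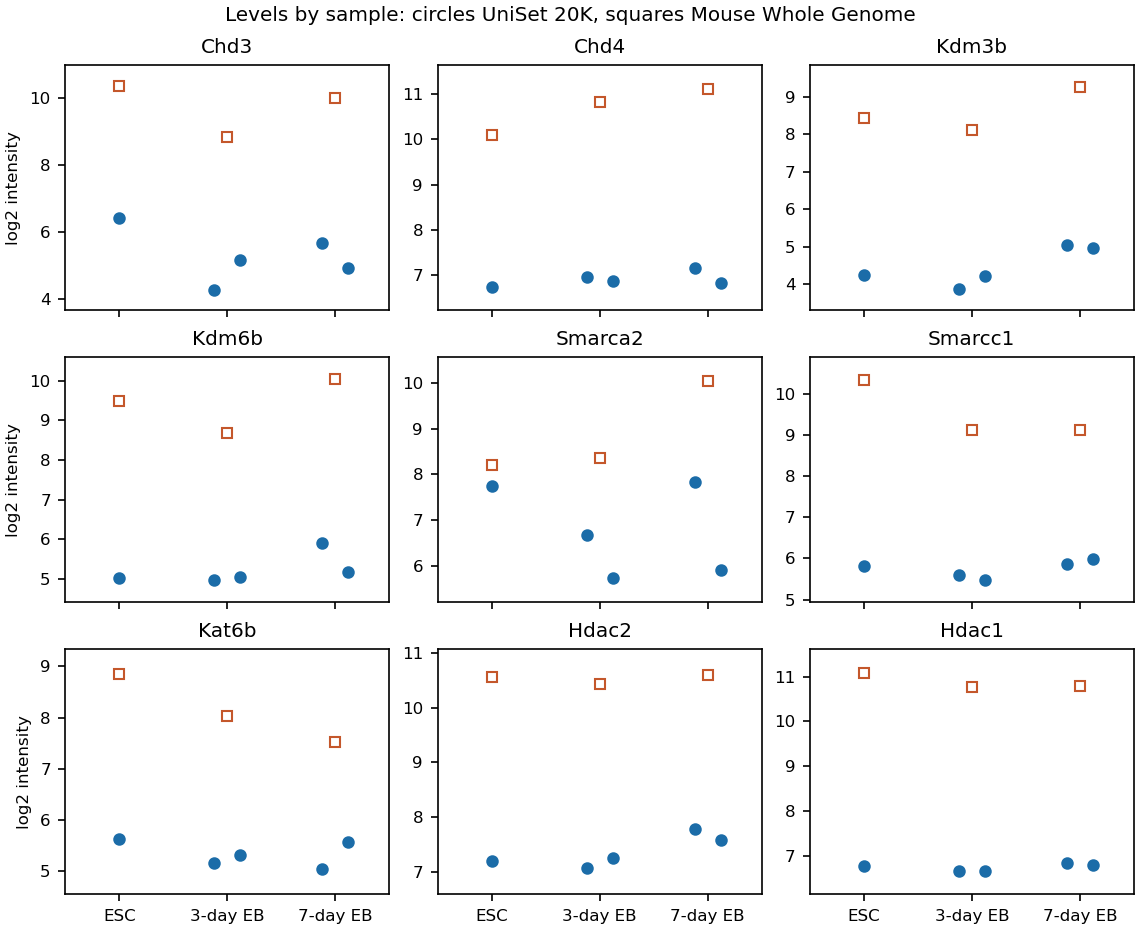
Log2 intensity of 9 genes in each cultured sample, 1 panel a gene, with filled circles for the UniSet product and open squares for the Whole Genome product, each point the mean of 2 arrays. The vertical axes differ between panels. Chd3 is highest in ESC on both products, Kdm3b is highest in 7-day EB on both, and the 7-day Smarca2 samples on the UniSet product lie far apart, at 7.84 and 5.92.

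The class I deacetylases Hdac1, Hdac2 and Hdac3, the catalytic subunits of the NuRD, SIN3, CoREST and NCoR corepressor complexes, gave estimates within 0.3 log2 units of 0 in both EB stages. Hdac1 read 6.79 in ESC, 6.68 and 6.68 in 3-day EB and 6.85 and 6.80 in 7-day EB on the UniSet product, and 11.08, 10.76 and 10.80 on the Whole Genome product. Its 95% intervals were -0.63 to 0.20 at 3 days and -0.52 to 0.31 at 7 days. Hdac2 read 7.21 in ESC, 7.08 and 7.26 in 3-day EB and 7.78 and 7.58 in 7-day EB, and 10.56, 10.44 and 10.59 on the other product. Its intervals were -0.56 to 0.36 and -0.17 to 0.75. Hdac3 had estimates of -0.24 and 0.08, the class IIa enzyme Hdac5 -0.31 and 0.00, and the tubulin deacetylase Hdac6 0.14 and 0.12. At 7 days Hdac6 differed from ESC by 0.44 and 0.42 on the UniSet product and by -0.28 on the Whole Genome product. Hdac7, Hdac8, Hdac9 and Hdac11 were not above background on any UniSet array, and Hdac9 was not on any Whole Genome array. Whole Genome levels of Hdac11 were 7.35, 6.50 and 6.78, and those of Hdac8 were 4.86, 5.43 and 5.12. Hdac7 had 2 probes there, the brighter at 7.00, 7.70 and 7.38.

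Kdm3b, a JmjC demethylase of a repressive mark on histone H3, was measured against the detection limit on the UniSet product. It was at 4.24 in ESC, 3.87 and 4.23 in 3-day EB and 5.04 and 4.96 in 7-day EB on the UniSet product, and at 8.44, 8.12 and 9.28 on the Whole Genome product. All 7-day samples were above the ESC and 3-day samples of their product, but none of the UniSet arrays of ESC and 3-day EB was above background, and the gene entered the test through 7-day EB alone. No fitted difference is given for this reason, and the fit passed neither against ESC (adjusted p = 0.0615) nor against 3-day EB (adjusted p = 0.119). Without 7-day EB replicate 2 the adjusted p against 3-day EB was 0.0439, and over the other alternatives it was 0.0904 to 0.629. On the Whole Genome product, where all 6 arrays were above background, the 7-day sample was 0.84 above ESC and 1.16 above 3-day EB, with 1 sample each.

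Kdm6b (JMJD3), which removes the methyl mark placed by Polycomb, read 5.03 in ESC, 4.97 and 5.05 in 3-day EB and 5.91 and 5.18 in 7-day EB, and 9.49, 8.69 and 10.04 on the Whole Genome product. Its 7-day samples were above both other stages within each product, and the estimates of 0.48 against ESC and 0.81 against 3-day EB did not pass (adjusted p = 0.368 and 0.257). Kdm6b entered the test through 7-day EB alone, so the filter could favour this direction. It was above background on 3 of 4 ESC arrays and 4 of 6 3-day arrays. Kdm6a (UTX), its X-linked relative, had estimates of -0.35 and -0.19 against ESC. Kdm6a entered the test through ESC alone, with 4 of 6 arrays above background at 3 days and 5 of 6 at 7 days. Kdm1a read 8.04 in ESC, 7.99 and 8.20 in 3-day EB and 8.62 and 8.48 in 7-day EB on the UniSet product. Whole Genome levels were 11.96, 11.24 and 11.93.

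Kdm8 read 5.68 in ESC, 6.41 and 5.94 in 3-day EB and 5.67 and 5.67 in 7-day EB, and 7.71, 8.57 and 8.25 on the other product, with the highest 3-day estimate of the family (0.67 ± 0.22 SE, adjusted p = 0.166). The demethylases of the promoter mark of active genes gave small estimates. Kdm5a had 0.38 and 0.22 at 3 and 7 days, and Kdm5b had -0.26 and -0.08. Kdm4c, a gene tied to stem cell self-renewal, had -0.53 and 0.00, and Kdm2b, which brings a Polycomb complex to unmethylated CpG islands, had -0.24 and 0.34. For both genes the products disagreed at 7 days. Kdm4c differed from ESC by -0.615 and -0.341 on the UniSet product and by 0.644 on the Whole Genome product. Kdm2b differed by 0.711 and 0.644 on the first and by -0.13 on the second. Kdm4b had -0.08 and -0.04. The Y-linked Kdm5d, named after its values were seen, had estimates of 0.39 and 0.35 and was above background on all cultured arrays. Its 7-day estimate averages opposite signs, with differences from ESC of -0.39 and -0.28 on the UniSet product and 1.33 on the Whole Genome product.

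Kat6b (MORF) was at 5.63 in ESC, 5.16 and 5.31 in 3-day EB and 5.04 and 5.58 in 7-day EB on the UniSet product, and at 8.84, 8.03 and 7.52 on the Whole Genome product. Each EB sample was below its ESC sample, and the estimates of -0.62 ± 0.28 (SE) and -0.74 ± 0.28 did not pass (adjusted p = 0.274 and 0.167). Kat2a (GCN5), the acetyltransferase of the SAGA complex, was higher in each EB sample than in ESC on the UniSet product, at 4.98 in ESC, 5.33 and 5.52 in 3-day EB and 5.85 and 6.39 in 7-day EB, but was at 10.25, 9.91 and 10.25 on the Whole Genome product. The 7-day estimate was 0.64 ± 0.29 (SE, adjusted p = 0.248). Kat14 had -0.57 and -0.30, and Kat8 (MOF), which acetylates histone H4, had 0.33 and 0.43.

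On the Whole Genome product alone, with 1 sample a group and therefore no test, 54 of the 56 genes passed the filter and 51 were above background on all 6 arrays. At 3 days 1 gene was at least 2-fold higher than in ESC, beside 10.4% of all genes, and 4 were at least 2-fold lower, beside 8.61%. The lower genes were Kat2b, Chd3 (-1.53), Smarcc1 (-1.22) and Smarcd3 (-1.18), and the higher one was Kat5. At 7 days there were 4 higher, beside 12.4%, namely Smarca2 (1.83), Kdm5d (1.33), Kat5 and Chd4 (1.03), and 3 lower, beside 9.51%, namely Kat6b (-1.32), Kat2b and Smarcc1 (-1.22). From 3 to 7 days 5 genes were at least 2-fold higher, beside 7.91% of all genes, and 0 lower, beside 6.76%. The 5 were Smarca2 (1.67), Smarcd3 (1.37), Kdm6b (1.35), Kdm3b (1.16) and Chd3 (1.16). These counts take the brightest probe of each gene, and a dimmer Smarca5 probe was 1.135 above ESC at 7 days. The largest difference was that of Kat2b (PCAF), the paralogue of Kat2a, which read 8.06 in ESC, 5.96 in 3-day EB and 6.77 in 7-day EB, differences of -2.09 and -1.29, while a second probe was not above background. Kat5 (TIP60), the acetyltransferase of the TIP60 complex that stem cells need, read 6.37, 7.71 and 7.54, differences of 1.34 and 1.17. Neither gene was above background on the UniSet arrays, so these differences have no replicate check.

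Of the 10 genes measured on that product alone, none reached 2-fold from ESC by its brightest probe. Chd8, which binds beta-catenin and is needed in early embryos, read 10.49, 10.35 and 10.18 in ESC, 3-day and 7-day EB. The neural remodeller Chd5 read 5.84, 5.57 and 5.34, and Chd9, named after its value was seen, had a 3-day difference of -0.93. Kat7 (HBO1) read 11.18, 10.60 and 11.14, and its second probe 7.35, 7.03 and 7.81. Kat6a (MOZ) read 9.85, 9.44 and 9.88, but its second probe read 7.83, 7.77 and 6.11, a 7-day difference of -1.72 against 0.04 for the first, so the probes disagree at 7 days. Kdm4a read 8.39, 8.48 and 8.70.

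**Figure D3:**
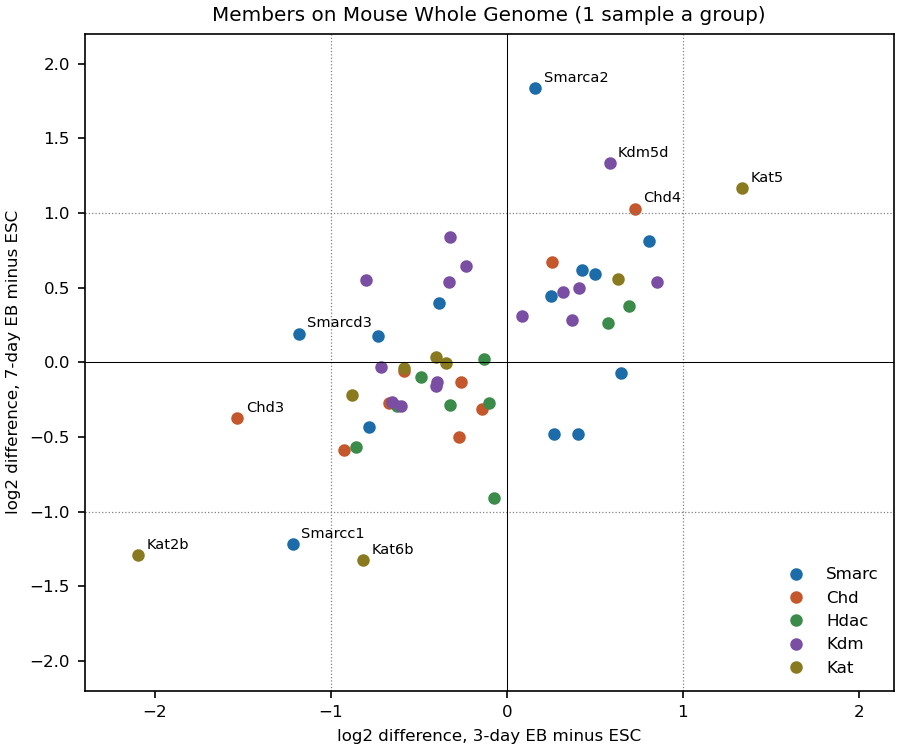
Log2 difference from ESC at 3 days (horizontal) and at 7 days (vertical) for the 54 genes that passed the filter on the Whole Genome product, 1 point a gene, coloured by family, with dotted lines at 2-fold and names for genes beyond them. Kat2b and Smarcc1 are below -1 on both axes and Kat5 is above 1 on both, with 1 sample a group.

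The second comparison set the cultured samples against adult RNA on the UniSet product, using the mean of the ESC, 3-day and 7-day groups. Of 35 tested genes 23 were higher in the cultured samples and 5 lower (limma, adjusted p under 0.05 over 10103 genes), that is 65.7 and 14.3%, beside 33.1 and 34.1% of all tested genes. Without adjustment 29 had p under 0.05, beside 70.1%. The median log2 difference of the 35 genes was 1.38, beside -0.01 over all. With arrays centred on their medians, which moved the median of all genes from -0.01 to -0.45, the split was 19 higher and 8 lower, beside 22.4 and 43.2% of all genes, and it was the same with the authors' normalization. The filter could favour one side, so the same count was made over probes above background on both sides. Of 26 such genes 18 were higher and 3 lower, beside 46.2 and 18% of all genes. Kat2a, Kat6b, Kdm3b, Kdm6a and Smarcal1 passed the filter through the cultured samples alone. All 5 were higher, beside 94.8% of 598 such genes, so a call of higher was near the background for them. Smarcc2, Smarcd1, Kdm5c and Kdm7a passed it through the adult samples alone, and 2 of these 4 were lower, beside 63.5% of 3802 such genes. With no filter 24 were higher and 4 lower of 46, beside 21.5 and 18.8%. In the main setting 24 genes had all cultured samples above both adult samples and 6 had them below, beside 35.9 and 35.4% of all genes.

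The adult arrays carry analysis dates of their own and more probes above background, so array batch and adult origin cannot be told apart in any of these values. The summed fibroblast markers were at 12.12 and 11.92 in the adult samples and 7.28 to 11.81 in culture, and their part in the differences was not tested. The family counts below stand beside the same shares of all genes, 33.1% higher and 34.1% lower, or 22.4 and 43.2% with median centring. Of the 28 genes, 21 kept their call and direction under every alternative run (18 higher and 3 lower). These include Kat2a, Kat6b, Smarcal1, Kdm3b and Smarcc2, which passed the filter through 1 side alone. They also include Smarce1, whose probes disagree, as given below.

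**Figure D4:**
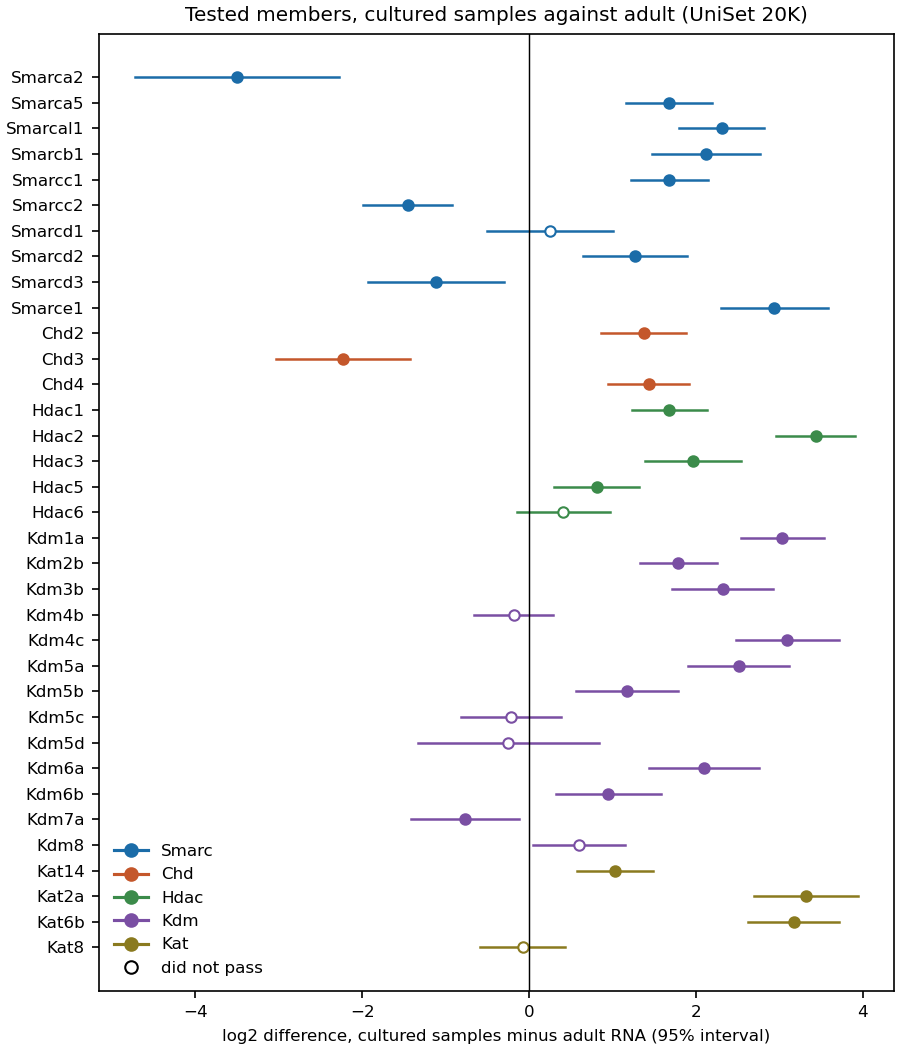
Log2 difference between the cultured samples and adult RNA for the 35 tested genes, grouped and coloured by family, with points for the limma estimate, lines for the 95% interval and open points for genes that did not pass. The estimates run from -3.50 for Smarca2 to 3.44 for Hdac2, and those of Kat2a, Kat6b, Kdm3b, Kdm6a, Smarcal1, Smarcc2 and Kdm7a are limited by detection on 1 side.

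The Smarc family split between higher and lower genes, with 6 of 10 tested genes higher and 3 lower, and this count held with arrays centred on their medians. Smarca2 was the lowest in culture: it was between 5.73 and 7.84 in the 5 cultured samples and at 10.50 and 10.38 in the adult samples. No cultured sample came near the adult levels, and the difference was -3.50 ± 0.52 (SE, 11.3-fold lower, adjusted p = 0.000768). The ISWI ATPase Smarca5 was between 7.73 and 8.33 in culture and at 6.23 and 6.38 in the adult samples, a difference of 1.68 ± 0.22 (SE, adjusted p = 4e-04). A second Smarca5 probe gave 2.52 in the sample means.

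The scaffold pair had differences of opposite sign, that of Smarcc2 limited by detection. Smarcc1 was between 5.48 and 6.0 in culture and at 4.1 and 4.06 in the adult samples, 1.68 ± 0.20 higher (SE, adjusted p = 0.000231). Smarcc2 was at 5.04 and 4.50 in the adult samples and, at 2.76 to 3.86, not above background on any cultured UniSet array. It entered the test through the adult samples alone, and 63.5% of 3802 such genes were lower. In culture it was at least 1.19-fold lower. Such a bound sets the mean of the brighter group against a detection limit for the dimmer one, taken on each array as its dimmest detected probe, or as the measured signal if that was larger, and then averaged.

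The promoters of these remodeller genes are shown because the remodelling ATPases Smarca2 (BAF) and Smarca5 (ISWI) differed from adult RNA in opposite directions. The BAF paralogues Smarcc1 and Smarcc2 had differences of opposite sign too, with Smarcc2 limited by detection in culture. They are RefSeq sequences of build GRCm38.p6, read 5′ to 3′ on the gene's strand from 250 bases before to 50 after the start, and capitals mark the GC box GGGCGG on either strand (read as CCGCCC on the other). Smarca2 lies on the plus strand at chr19:26604910-26605209, Smarca5 on the minus strand at chr8:80739410-80739709, Smarcc1 on the plus strand at chr9:110131774-110132073 and Smarcc2 on the plus strand at chr10:128458986-128459285.
Smarca2: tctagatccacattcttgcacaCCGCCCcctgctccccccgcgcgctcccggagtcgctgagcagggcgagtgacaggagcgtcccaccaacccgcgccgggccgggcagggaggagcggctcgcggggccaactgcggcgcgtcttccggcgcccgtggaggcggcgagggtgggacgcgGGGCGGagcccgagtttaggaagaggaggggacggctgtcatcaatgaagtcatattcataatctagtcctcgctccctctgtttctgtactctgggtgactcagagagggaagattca
Smarca5: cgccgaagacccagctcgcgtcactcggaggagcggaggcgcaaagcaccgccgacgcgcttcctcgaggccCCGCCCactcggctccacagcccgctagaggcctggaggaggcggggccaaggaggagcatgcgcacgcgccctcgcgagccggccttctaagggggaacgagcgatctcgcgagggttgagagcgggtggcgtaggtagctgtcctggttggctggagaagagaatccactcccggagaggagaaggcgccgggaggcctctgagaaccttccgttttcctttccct
Smarcc1: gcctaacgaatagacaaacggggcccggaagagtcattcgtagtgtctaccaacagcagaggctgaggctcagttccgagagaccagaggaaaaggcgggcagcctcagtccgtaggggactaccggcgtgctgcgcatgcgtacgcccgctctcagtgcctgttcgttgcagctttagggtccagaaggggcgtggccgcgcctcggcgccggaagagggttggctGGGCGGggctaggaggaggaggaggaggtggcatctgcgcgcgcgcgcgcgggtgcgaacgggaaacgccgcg
Smarcc2: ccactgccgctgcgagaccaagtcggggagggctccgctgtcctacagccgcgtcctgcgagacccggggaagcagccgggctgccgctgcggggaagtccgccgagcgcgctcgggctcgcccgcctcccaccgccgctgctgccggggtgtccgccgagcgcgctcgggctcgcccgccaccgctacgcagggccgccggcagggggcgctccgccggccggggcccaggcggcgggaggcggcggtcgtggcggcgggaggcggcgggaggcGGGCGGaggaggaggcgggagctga
The Smarca2 window holds 2 GC boxes and the other windows 1 each, and none of the 4 holds the CCAAT box (CCAAT), the TATA box (TATAAA), the E-box (CACGTG) or the octamer (ATGCAAAT), searched on both strands. All 4 are rich in CpG, with 29 in Smarca2, 32 in Smarca5, 33 in Smarcc1 and 48 in Smarcc2, so these letters do not separate the genes by direction. A RefSeq promoter was found for 44 of the 56 genes. A GC box was in 30 of the 44 (68.2%), beside 46.3% of 17491 protein-coding genes, and in 13 of the 16 matched genes that were higher in culture and 4 of the 4 that were lower. A CCAAT box was in 40.9% of the 44, beside 39.2%, a TATA box in 9.09% beside 13.3%, an E-box in 6.82% beside 7.91% and the octamer in 2.27% beside 1.72%.

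Among the other BAF subunits, Smarcb1 was between 6.32 and 6.64 in culture and at 3.91 and 4.78 in the adult samples, 2.12 ± 0.27 higher (SE, adjusted p = 0.000389). Smarce1 was 2.94 ± 0.27 higher (SE, adjusted p = 7.82e-05) by its brightest probe, which read 7.95 to 8.59 in culture and 5.48 and 5.09 in the adult samples. A second probe, above background on all 12 UniSet arrays, differed by 0.03 in the sample means, so the probes of Smarce1 disagree. Smarcd2 was 1.27 higher, Smarcd1 did not pass, and Smarcd3 was 1.12 ± 0.35 lower (log2 difference -1.12, adjusted p = 0.0232). The Smarcd3 call was lost without adult replicate 1 (-0.98, adjusted p = 0.157) and without adult replicate 2 (-1.25, adjusted p = 0.0983). The helicase Smarcal1, not above background in the adult samples, was at least 4.11-fold higher.

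**Figure D5:**
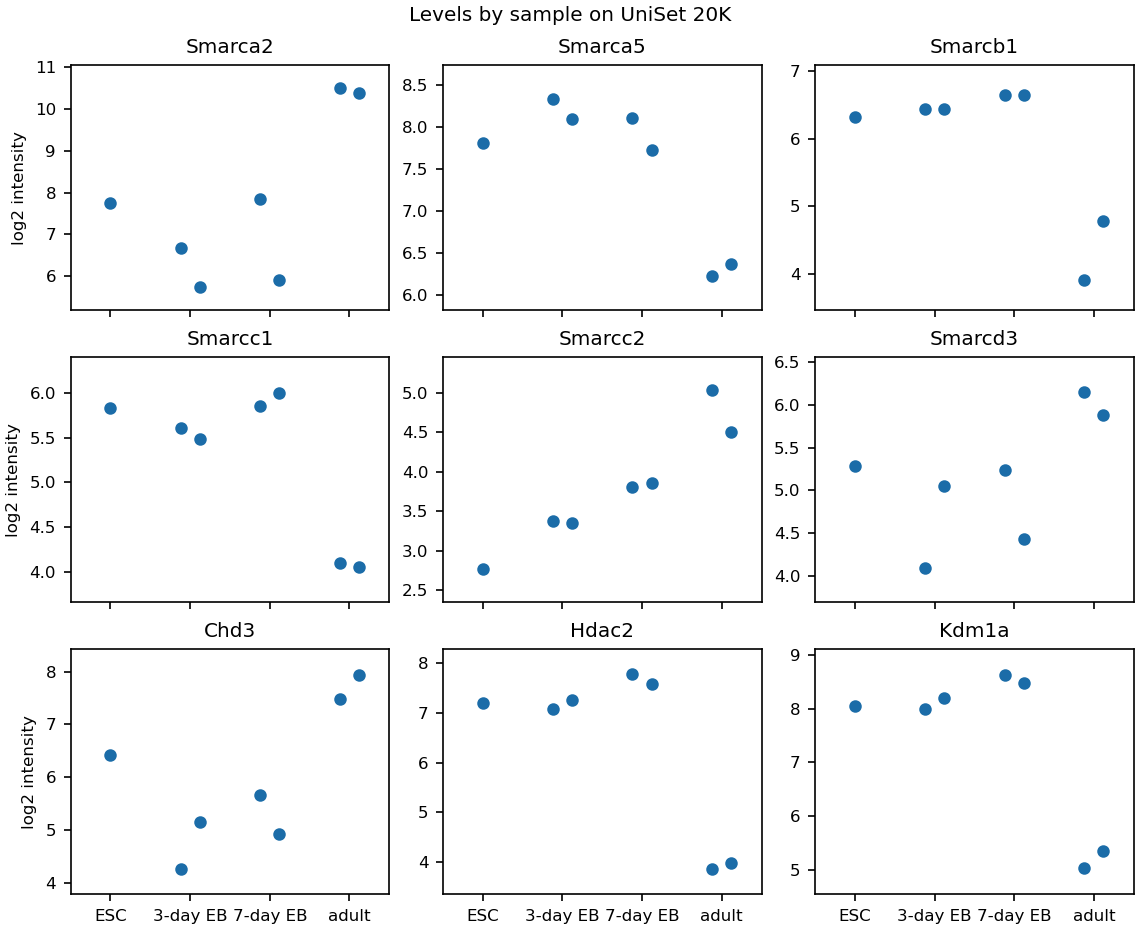
Log2 intensity of 9 genes in each UniSet sample, 1 panel a gene, by group, with each point a sample. The vertical axes differ between panels. Smarca2, Smarcc2, Smarcd3 and Chd3 are highest in the adult samples, and Smarca5, Smarcb1, Smarcc1, Hdac2 and Kdm1a are lowest there.

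The NuRD ATPases differed from adult RNA in opposite directions too. Chd3 was at 7.48 and 7.94 in the adult samples and between 4.27 and 6.42 in culture, a difference of -2.23 ± 0.34 (SE, adjusted p = 0.000887). Chd4 was at 5.52 and 5.40 in the adult samples and between 6.75 and 7.17 in culture, 1.43 ± 0.21 higher (SE, adjusted p = 0.00069). Chd2 was 1.38 higher.

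All 5 tested deacetylases had positive differences and 4 passed. Hdac2 was between 7.08 and 7.78 in culture and at 3.85 and 3.98 in the adult samples, a difference of 3.44 ± 0.20 (SE, 10.8-fold, adjusted p = 1.13e-05). Its partner Hdac1 was between 6.68 and 6.85 in culture and at 5.06 and 5.11 in the adult samples, 1.68 ± 0.19 higher (SE, adjusted p = 0.000209), and Hdac3 was 1.97 higher. The Hdac5 difference of 0.81 (adjusted p = 0.0124) did not pass with arrays centred on their medians (0.24, adjusted p = 0.408) or without adult replicate 1 (0.66, adjusted p = 0.0791). The Hdac6 difference of 0.41 did not pass and turned to -0.27 with arrays centred on their medians. The promoter of Hdac2 (RefSeq, GRCm38.p6, plus strand, chr10:36974294-36974593) is shown because Hdac2 had a large difference that was measured above background on all 12 UniSet arrays. It holds 1 GC box, in capitals, and 36 CpG.
Hdac2: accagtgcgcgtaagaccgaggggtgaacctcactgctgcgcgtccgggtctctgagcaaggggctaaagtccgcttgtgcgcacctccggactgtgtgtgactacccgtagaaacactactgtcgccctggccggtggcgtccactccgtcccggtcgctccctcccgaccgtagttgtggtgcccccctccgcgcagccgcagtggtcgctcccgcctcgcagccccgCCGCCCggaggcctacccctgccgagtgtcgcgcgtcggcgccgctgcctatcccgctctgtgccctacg

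Of 13 tested demethylases 8 were higher, 1 was lower and 4 did not pass, beside 33.1% higher and 34.1% lower of all genes. With arrays centred on their medians 6 were higher and 3 lower, beside 22.4 and 43.2%. Kdm1a was between 7.99 and 8.62 in culture and at 5.03 and 5.35 in the adult samples, 3.04 ± 0.21 higher (SE, adjusted p = 2.33e-05). Kdm4c was between 6.46 and 7.37 in culture and at 4.20 and 3.46 in the adult samples, 3.10 higher, and Kdm5a was 2.51 higher. Kdm3b and Kdm6a, not above background in the adult samples, were at least 2.56-fold and 3.61-fold higher. Without ESC replicate 1, Kdm6a did not pass the filter and was not tested, and it passed the threshold in each other alternative. Kdm2b was 1.79 higher.

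The remaining demethylase calls were less firm. The Kdm5b difference of 1.17 did not pass with arrays centred on their medians (0.50, adjusted p = 0.107) or without adult replicate 2 (0.83, adjusted p = 0.0548). The Kdm6b difference of 0.95 did not pass with median centring (0.54, adjusted p = 0.105) or without adult replicate 2 (0.74, adjusted p = 0.138). Kdm7a, named as the fifth lower gene after its value was seen, was not above background on any cultured UniSet array, so no fold is given. Its adult levels were 3.94 and 3.91, and the adjusted p of 0.0399 did not hold with no filter (0.0673), without 3-day EB replicate 1 (0.0688) or without adult replicate 1 or 2 (0.157 and 0.156). Kdm8 did not pass (0.60, adjusted p = 0.0537) but did without ESC replicate 1 (0.68, adjusted p = 0.0365) and without 3-day EB replicate 2 (0.68, adjusted p = 0.0415). Kdm4b and Kdm5c did not pass, at -0.18 and -0.21, and with median centring both were lower (-0.78 and -0.71, adjusted p = 0.0143 and 0.0375). The adult samples were at 6.39 and 4.53 for Kdm5d, far apart on either side of the cultured range of 4.90 to 5.41.

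Of 4 tested acetyltransferases 3 were higher. Among these, Kat2a and Kat6b entered the test through the cultured samples alone, as did 598 of all tested genes, of which 94.8% were higher. Kat2a was between 4.98 and 6.39 in culture and, at 1.90 and 2.47, not above background in the adult samples, at least 5.42-fold higher. Kat6b was between 5.04 and 5.63 in culture and at 2.30 and 2.13 in the adult samples, again not above background, at least 5-fold higher. Kat14 was 1.04 higher, a call that was lost with arrays centred on their medians (0.38, adjusted p = 0.169). Kat8 did not pass, at -0.08, and with median centring was lower (-0.62, adjusted p = 0.0369).

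Further subunits and relatives of these enzymes, 99 genes in 8 lists of which 83 had a named probe on both products, were counted in the same way. Of 54 tested, 1 was lower at 3 days, the remodelling ATPase Ino80 (-1.22 ± 0.24 SE, adjusted p = 0.0389), and 1 was higher at 7 days, the acetyltransferase Hat1 of newly made histone H4 (1.14 ± 0.26, adjusted p = 0.047). Between the stages none passed. Against adult RNA 31 of 66 were higher in culture and 16 lower, with a median of 0.45. Beside this count and those of the lists below stand 33.1% higher and 34.1% lower over all tested genes, and 46.2 and 18% over probes above background on both sides. Ruvbl1 and Sin3a passed the filter through the cultured samples alone, and 94.8% of 598 such genes were higher. Gatad2b, Sirt1 and Baz2a passed it through the adult samples alone, and 63.5% of 3802 such genes were lower. The BAF and PBAF list had 8 of 12 higher and 3 lower, with the actin-related subunit Actl6a 3.78 higher, Brd7 2.48 and Pbrm1 2.21. The NuRD list had 4 of 10 higher and 2 lower, with the histone chaperone Rbbp7 3.05 higher, Cdk2ap1 2.84 higher and Gatad2b at least 1.07-fold lower.

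The INO80, SRCAP and TIP60 list had 7 of 13 higher and 1 lower, with the AAA+ ATPase Ruvbl1 at least 7.87-fold higher and Yeats4 2.11 higher. Of the corepressor subunits 5 of 11 were higher and 3 lower, with the SIN3 scaffold Sin3a at least 6.33-fold higher and Sap30 2.56 higher. Other acetyltransferases and partners had 4 of 8 higher and 2 lower, with Hat1 5.26 higher, and the other JmjC proteins 2 of 4 higher and none lower, with Hspbap1 3.78 higher. The sirtuins, deacetylases that use NAD, had none of 4 higher and 3 lower: Sirt1 was at least 2.26-fold lower, Sirt7 differed by -1.24 and Sirt2 by -0.99. Of the 4 tested ISWI partners 1 was higher, Bptf, and 2 were lower, Baz1a and Baz2a. Baz2a was not above background on any cultured UniSet array, and its bound was 1-fold, so its call has no measured size.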

How the data were processed

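Scanner exports of 18 arrays were used. Per the file headers, the authors' scanner software (version 4.1.0.29054) gave a raw intensity per spot and a median-normalized intensity, and the deposited raw intensity has values below 0, so background had been subtracted. RNA was amplified linearly with biotin label and read with Cy5, per the labels' protocols. Spots marked as faulty were set aside and saturated spots kept. Intensity was quantile-normalized within each product and raised to the median negative control where lower (3.42 on UniSet, 5.23 on Whole Genome), then put on the log2 scale and averaged over a sample's arrays, which were those sharing a group and first number in their title. Of 19758 probes on both products, 15811 carried 1 current symbol, by accession, platform table or the file's description. A gene was represented by its brightest probe above background on every array of a group.

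Tests used limma 3.58.1 in R 4.3.3 (lmFit, eBayes, Benjamini-Hochberg). The EB fit held 8 samples with the product as a term (4 residual degrees of freedom) and the adult fit 7 UniSet samples (3). ESC has 1 UniSet sample, assumed to vary like the others. Alternatives covered normalization, filter, probe choice, scan batch, replicate block, product and leaving out each sample. The fits were tested on simulated data.

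The genes named are the called members (the 12 with the largest difference where more passed), the largest and smallest difference per family and comparison, and a fixed set; other subunits are the 3 with the smallest p per list. The text leaves out some of them. The members and lists were chosen with earlier results of these data known. Same-numbered EB samples 1 and 2 deviated together across genes (r = 0.317), but the labels do not say what a number shares and replicate 3 was run on the other product, so samples were not paired. Depth on arrays is limited by the number of arrays.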

Additional observations from a re-analysis of the deposited data

How the results depend on the processing

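No gene result that passed the threshold turned its direction under any alternative run. In 3-day EB against ESC the count of these genes past the threshold moved from 0 to 1, Chd3, with median centring and with the authors' normalization, and was 0 or 1 as samples were left out. In 7-day EB against ESC it was 0 throughout. Between the EB stages it was 0 or 1 (Kdm3b) as samples were left out, and 0 under the other settings. Against adult RNA, 28 became 27 with median centring and with the authors' normalization, 28 with no filter, and 25 to 29 as samples were left out. With the replicate block, the counts of these genes were 0, 0 and 0 in the EB comparisons and 28 against adult RNA, so the replicate block changed no call among them.

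Counts over all genes in the EB comparisons were less stable, and the cause was not tested. At 3 days 176 became 75 with no filter, 111 with scan batch, 67 with the replicate block, 0 with the UniSet arrays alone, and 1 to 299 as samples were left out, with 1 without ESC replicate 2. At 7 days 320 became 136, 86, 148 and 1 in the same order, and 24 to 473 as samples were left out. Between the stages 0 became 7 with the mean of probes, 12 with the replicate block and up to 173 without 7-day EB replicate 2.

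Single genes that turned direction had not passed: with median centring Hdac6 (-0.27) and Smarcd1 (-0.082) against adult RNA, and Kdm4c (-0.07) and Smarce1 (-0.077) at 7 days. With the mean of probes it was Smarca5 at 7 days (0.088), and without adult replicate 1 it was Kat8 (0.015; -0.168 to 0.015 as samples were left out). Over 1757 gene results under every alternative, 94 turned direction, none of which had passed, 17 were lost and 13 gained. The full set of alternatives was computed for each gene, and values are given here for the alternatives planned for single genes and for genes that passed in any setting. Normexp was not run because background had already been subtracted. Scan batch was not run for the adult comparison, where each batch held adult or cultured arrays but not both. Few arrays and, on the UniSet product, 27.8 to 36.4% of probes above background in culture limit what could be detected.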
